A study of Mus musculus with 16 samples.

Results

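The 10 genes Pdgfra, Pdgfrb, Thy1, Dcn, Lum, Acta2, Tagln, Tnc, Postn and Wisp1, which mark fibroblasts and myofibroblasts, were followed through cultures of mouse male germline stem cells. They were taken by name from the gene tables: 10 of 10 were found among 27128 genes, and 10 of 10 passed the filter, a mean over 12 libraries of 1 CPM (counts relative to library size) or more, which 14301 genes met. Of the 10, 3 mark the cell surface (Pdgfra, Pdgfrb and Thy1), a pair encode small leucine-rich proteoglycans of the matrix (Dcn and Lum), a pair belong to the contractile apparatus (Acta2 and Tagln), and the remaining 3 encode secreted matricellular proteins (Tnc, Postn and Wisp1).

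Fibroblasts make and remodel the collagen-rich matrix of connective tissue. Platelet-derived growth factors act on them through the receptors encoded by Pdgfra and Pdgfrb. When fibroblasts are stimulated by TGF-beta or by a stiff substrate they can become myofibroblasts, which build stress fibres containing alpha smooth muscle actin (Acta2) and transgelin (Tagln) and deposit tenascin C and periostin. In germline stem cell culture, mouse embryonic fibroblasts (MEF) are widely used as a feeder layer, so their RNA can enter a library beside that of the germ cells. THY1 is a fibroblast marker that is also known from the surface of spermatogonial stem cells.

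The RNA libraries came from germline stem cells (GSCs) of the line B6;CBA-Tg(Pou5f1-EGFP)2Mnn/J, in which GFP is driven by regulatory sequence of Pou5f1 (Oct4). In every group the cultures began from Oct4-GFP-positive, KIT-negative germ cells of mice at postnatal day 5.5, which were kept in StemPro-34 medium with GDNF, bFGF and EGF. The 4 experiments were feeder removal (day 0 on MEF, then days 4 and 9 after the move to Matrigel, a basement membrane extract), Matrigel density (the epithelial-like library at 0.1 µg/cm2 and the mesenchymal-like library at 10 µg/cm2), sorting (GFP-low, GFP-mid and GFP-high cells from Matrigel at 10 µg/cm2) and G9a inhibition (cells on MEF given DMSO, the solvent, or a 48-hour treatment with UNC0638, a G9a and GLP inhibitor, at 0.5, 1 or 2 µM). The labels do not say whether a library came from 1 culture or a pool, nor which strain the MEF came from. Each RNA group had 1 library, so differences are given without replicate spread or p-values. The 4 ATAC-seq libraries named in the labels were not analysed here.

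Library totals ran from 4335185 to 12019651 expected counts. Germ-cell markers were present in each of the 12 libraries: Ddx4 (the germ-cell RNA helicase) had 225 to 588 TPM (a level per gene length, scaled to a fixed library total) and Dazl had 727 to 1190 TPM. A level of 3 counts, taken as the smallest visible one, lay between 0.238 and 0.724 CPM. No group occurs in more than 1 experiment, so a technical batch and an experiment cannot be told apart. In these bulk samples fewer fibroblasts and less fibroblast RNA per cell cannot be told apart either, and the libraries do not show which cells, germ cells included, the marker RNA came from.

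Promoter windows in the RefSeq table (build GRCm38.p6, 250 bases before to 50 after an annotated start) existed for 4 of the 10 genes. Stretches of 120 bases are shown for 3 of them: Acta2, which had the largest log2 difference of the 10 in either direction between day 9 and day 0 and was lower at day 9, Postn, which had the largest ratio of highest to median level, and Pdgfra, which had the smallest. Capitals mark TATATAA, the form of the core promoter element called the TATA box, and CArG-like matches. A CArG box is bound by serum response factor, and a match here has CC before and GG after 6 bases, of which at least 5 are A or T. Each line runs 5′ to 3′ on the strand of the gene.
Acta2 (chr19:34255354-34255473, minus strand): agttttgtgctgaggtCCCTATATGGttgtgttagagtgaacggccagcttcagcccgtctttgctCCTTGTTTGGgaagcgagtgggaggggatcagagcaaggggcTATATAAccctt
Postn (chr3:54360987-54361106, plus strand): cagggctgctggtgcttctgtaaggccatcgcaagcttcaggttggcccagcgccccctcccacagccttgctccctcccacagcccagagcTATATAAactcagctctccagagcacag
Pdgfra (chr5:75152131-75152250, plus strand): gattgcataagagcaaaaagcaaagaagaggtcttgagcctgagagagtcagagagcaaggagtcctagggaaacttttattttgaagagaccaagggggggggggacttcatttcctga

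Acta2 holds the CArG-like letters at positions -84 and -34 and TATATAA at position 9, where 1 is the annotated start and -1 the base before it. Postn holds TATATAA at position -28 of its second window. One of the Tnc windows has it at -29. The Pdgfra window holds neither set of letters. Over 32851 windows of 300 bases, searched on both strands, 3.24% hold TATATAA and 9.98% hold the CArG-like letters. The letters were chosen after the sequences had been read, and a match is a description of the sequence only. All 3 stretches lie inside the span of the annotated gene, and the table does not say whether in exon or intron.

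Dcn (chr10:97479500-97518163) and Lum (chr10:97565501-97572703) are neighbours in the genome, 47337 bases apart. Acta2 spans chr19:34240336-34255585, Postn chr3:54359267-54391041, Tnc chr4:63959785-64047015 and Pdgfra chr5:75151322-75198206. Thy1 (chr9:44043384-44048579) and Tagln (chr9:45929628-45936058) share a chromosome. Wisp1 is listed by RefSeq as Ccn4 (chr15:66891369-66923201).

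Marker RNA was highest in the mesenchymal-like library and low in the epithelial-like library and the sorted cells. The summed deposited TPM of the 10 genes was 81.1, 92.6 and 57.8 at days 0, 4 and 9, 16.4 in the epithelial-like library and 483 in the mesenchymal-like library. In the sorted cells it was 13.8 (GFP-low), 13.6 (GFP-mid) and 17.3 (GFP-high). In the inhibitor experiment it was 279 with DMSO and 120, 37.1 and 66.6 with 0.5, 1 and 2 µM UNC0638. Of the Matrigel libraries, those of day 4 and the mesenchymal-like culture lay above the feeder culture of day 0, and the other 5 lay below it. As a share of all expected counts, the 10 genes took from 0.00355% (GFP-mid, 95% Wilson interval 0.00323 to 0.00391) to 0.0834% (mesenchymal-like, 0.0808 to 0.0861).

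**Figure D1:**
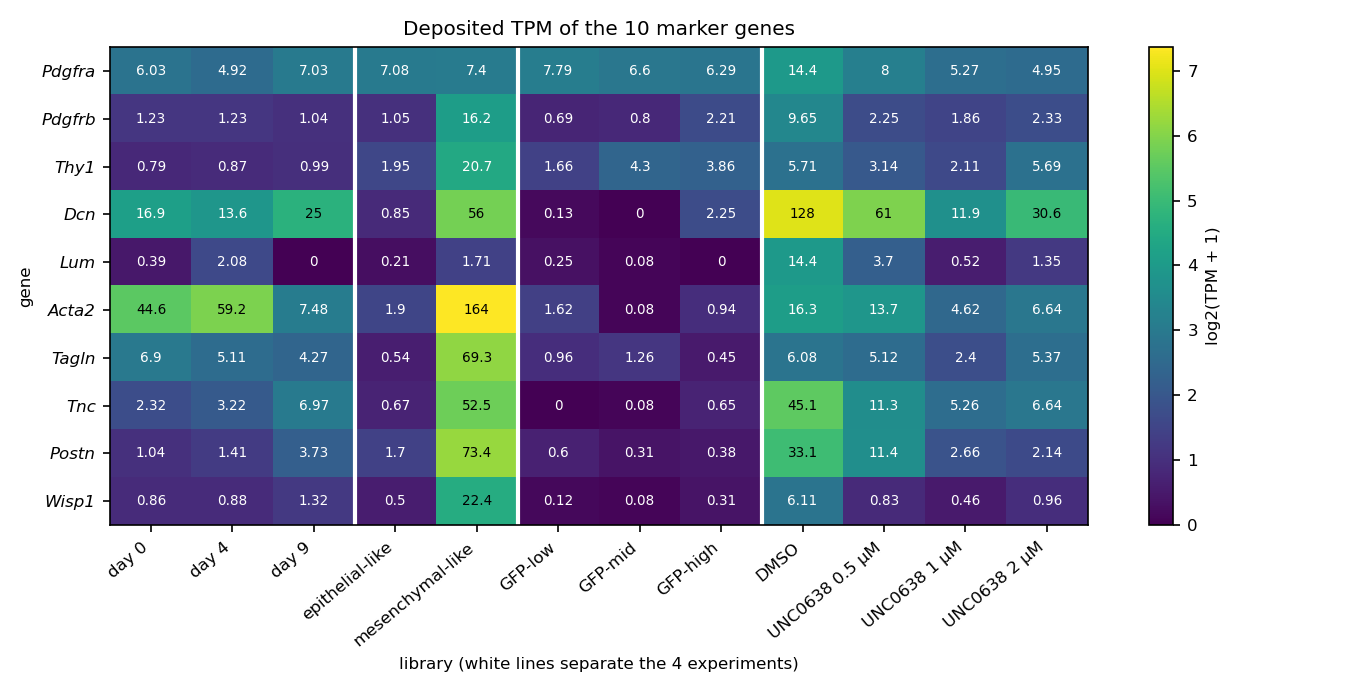
Deposited TPM of each marker gene (rows) in each of the 12 libraries (columns), 1 library per group; colour is log2(TPM + 1) and the printed number is the TPM. The mesenchymal-like column holds the highest level of 7 of the 10 genes and the DMSO column that of Pdgfra, Dcn and Lum.

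Of the surface genes, Pdgfra varied least. Its level was 6.03, 4.92 and 7.03 TPM at days 0, 4 and 9, 7.08 in the epithelial-like and 7.40 in the mesenchymal-like library, 7.79, 6.60 and 6.29 in the sorted fractions from GFP-low to GFP-high, and 14.4, 8.0, 5.27 and 4.95 with DMSO and the rising UNC0638 doses. The DMSO library stood above the other 11, which lay between 4.92 and 8.0 TPM. Pdgfra encodes the alpha receptor for platelet-derived growth factors.

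Pdgfrb, which encodes the beta receptor, was at 16.2 TPM in the mesenchymal-like library and 9.65 with DMSO. The other 10 libraries held 0.690 to 2.33 TPM. The order at the top was clear by counting error: the 95% Poisson interval of the mesenchymal-like library lay above that of DMSO, and that of DMSO above UNC0638 at 2 µM. Pdgfrb per Pdgfra was 2.19 in the mesenchymal-like library (interval of the read split 1.77 to 2.72), 0.673 with DMSO (0.548 to 0.823) and 0.0885 to 0.471 in the other 10 libraries. The beta receptor exceeded the alpha receptor in TPM in the mesenchymal-like library alone among the 12.

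Thy1 was at 20.7 TPM in the mesenchymal-like library, against 0.790 to 5.71 in the other 11. Its lowest levels were at days 0, 4 and 9 (0.790, 0.870 and 0.990 TPM), including the feeder culture of day 0. In the sorted cells it was 1.66, 4.30 and 3.86 TPM from GFP-low to GFP-high, where most other markers were near 0. Thy1 took 31.6% of the summed marker TPM in GFP-mid and 22.3% in GFP-high, against 4.28% in the mesenchymal-like library and 2.05% with DMSO.

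The proteoglycan genes were led by the DMSO library. Dcn, which encodes decorin, a proteoglycan that binds collagen fibrils, had 16.9, 13.6 and 25.0 TPM at days 0, 4 and 9, 0.850 in the epithelial-like library, 56.0 in the mesenchymal-like one, and 0.130, 0 and 2.25 in the sorted fractions. With DMSO it reached 128 TPM, and with UNC0638 61.0, 11.9 and 30.6 TPM. Dcn had no count in GFP-mid, where the floor of 3 counts is 0.238 CPM and the 95% Poisson interval reaches 0.292 CPM. Lum encodes lumican, a related proteoglycan, and was at 14.4 TPM with DMSO. In the other 11 libraries Lum lay between 0 (day 9 and GFP-high) and 3.70 TPM (0.5 µM UNC0638).

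Lum did not follow its neighbour Dcn in a fixed ratio. Lum per Dcn in TPM was 0.112 with DMSO (0.0863 to 0.143), 0.153 at day 4 (0.0951 to 0.236) and 0.0305 in the mesenchymal-like library (0.0131 to 0.0611). At day 9 Lum had 0 counts beside 282 of Dcn, a ratio of at most 0.0133. These intervals did not overlap between day 4 and day 9, nor between DMSO and the mesenchymal-like library.

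Both contractile genes peaked in the mesenchymal-like library. Acta2 was at 44.6, 59.2 and 7.48 TPM at days 0, 4 and 9, at 1.90 in the epithelial-like and 164 in the mesenchymal-like library, and at 1.62, 0.0800 and 0.940 in the sorted fractions from GFP-low to GFP-high. In the inhibitor experiment it was 16.3, 13.7, 4.62 and 6.64 TPM. Tagln was at 69.3 TPM in the mesenchymal-like library and between 0.45 and 6.90 in the other 11. Among those 11 the day 0 library was the highest in Tagln. Relative to Acta2, Tagln was lower at days 0 and 4 than in the mesenchymal-like library: Tagln per Acta2 was 0.155 (0.109 to 0.213) at day 0 and 0.0862 (0.0628 to 0.116) at day 4. It was 0.571 (0.379 to 0.846) at day 9, 0.424 (0.367 to 0.488) in the mesenchymal-like library and 0.374 (0.227 to 0.595) with DMSO.

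Near-identical actin genes could share reads with Acta2. Acta1, Actc1 and Actg2, its closest relatives, were at or below 2.19 TPM in every library, while the cytoplasmic actins Actb and Actg1 were at 1710 to 3570 and 737 to 1640 TPM. The tables do not show how reads shared by actin genes were divided. Only 2 of 120 expected counts of the markers were not whole.

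The matricellular genes were high in the mesenchymal-like and DMSO libraries. Tnc, which encodes tenascin C, was at 52.5 TPM in the mesenchymal-like library, 45.1 with DMSO and 11.3 with 0.5 µM UNC0638, and at 0 (GFP-low) to 6.97 TPM (day 9) in the other 9. Postn, which encodes periostin, was at 73.4, 33.1 and 11.4 TPM in the same 3 libraries and at 0.310 to 3.73 in the other 9. Wisp1, a member of the CCN family of secreted proteins, was at 22.4 TPM in the mesenchymal-like library, 6.11 with DMSO and 0.0800 to 1.32 in the other 10. The mesenchymal-like and DMSO libraries were closer in Tnc than in Postn or Wisp1, though their Tnc intervals did not overlap.

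When each gene's 12 libraries were put in order of CPM, 84 of the 110 neighbouring pairs had overlapping 95% Poisson intervals. Overlap alone does not show that an order is unresolved by counting error. Tnc at days 0 and 4 was such a pair, and the read-split interval of its log2 ratio was 0.05 to 0.88. Of the 26 pairs that did not overlap, 6 were of Tnc, 5 of Dcn and 4 of Acta2. For Pdgfra, Thy1, Lum and Tagln a single pair did not overlap, the step to the highest library.

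After feeder removal Acta2 was low at day 9, while Tnc and Postn were higher than on feeders. The log2 ratio of CPM + 1 between libraries was used for these comparisons, with a call at 2-fold. At day 4 only Lum was called against day 0, from 3 to 24 counts (1.13, interval without pseudocount 0.67 to 4.76; 0.38 and no call with a pseudocount of 5 CPM), beside 2.28% of all genes called (1.25% higher and 1.03% lower). The median of the 10 ratios was 0.03, and that of all genes was 0.03. Acta2 went from 347 to 697 counts (45.0 to 59.0 CPM), a log2 ratio of 0.38 that was not called. Of the listed genes Loxl2 (4 to 51 counts, 1.81) was higher at day 4, and Fbn1 (fibrillin, -1.04), Myh11 (13 to 0), Itgam of the macrophage list (8 to 0) and Pecam1 of the endothelial list (78 to 39, -1.37) were lower. Their part in the marker ratios was not tested.

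At day 9, 2 markers were higher than at day 0 and 1 was lower, beside 2.60% of all genes called (1.62% higher and 0.979% lower). Acta2 fell to 85 counts, 6.92 CPM (log2 ratio -2.54, -3.06 to -2.36). Tnc rose from 9.59 to 26.4 CPM (1.37, 1.09 to 1.85) and Postn from 1.94 to 6.43 CPM (1.33, 0.92 to 2.63). With a pseudocount of 5 CPM Postn was no longer called (0.72). Dcn went from 16.9 to 22.9 CPM (0.42) and Pdgfrb from 3.76 to 2.93 (-0.28), neither called. Against all genes, the median marker ratio was 0.09 beside 0.02.

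Set directly against day 4, a comparison chosen after seeing the data, day 9 had 1 higher and 2 lower markers, beside 1.74% of all genes called (0.881% higher and 0.860% lower). Postn was higher (1.04, 0.68 to 1.94), a call lost with a pseudocount of 5 CPM (0.58) and on deposited TPM (0.97). Acta2 was lower (-2.92, -3.43 to -2.77), and Lum went from 24 counts to 0, at least 8.32-fold lower against a floor of 3 counts, where the read-split interval, a wider bound, begins at a log2 ratio of -2.65. With a pseudocount of 5 CPM the ratio of Lum was -0.49, and its call was lost too. Tagln, the other contractile marker, was not called in any of the 3 comparisons. It had 42, 47 and 38 counts, which were 5.44, 3.98 and 3.09 CPM, and its ratio at day 9 against day 0 was -0.66 (-1.49 to -0.15), in the direction of Acta2. Of the listed genes Ptprc (1 to 18 counts, 1.18), Myh11 (smooth-muscle myosin heavy chain, 0 to 20, 1.39) and Wisp2 (0 to 13, 1.04) were higher at day 9 than at day 4 and Cyr61 was lower (349 to 168, -1.06).

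Most other contractile genes were not called at day 9, where Acta2 was lower. Of 18 genes of the contractile apparatus and its regulator serum response factor, 14 passed the filter and none was called against day 0 in either direction (median 0.01, range -1.0 in Tpm2 to 0.88 in Des). Cnn1 (calponin), which the filter removed, did take the course of Acta2, with 21, 36 and 3 counts at days 0, 4 and 9 (log2 ratio -1.58 at day 9 against day 0); it is named after its values were seen. Tpm2, a tropomyosin gene, went from 39 counts at day 0 to 25 at day 9. Myl9 (myosin light chain) had a ratio of -0.61, Tpm1, another tropomyosin gene, -0.61, Cald1 (caldesmon) -0.43 and Srf itself 0.47. Of 24 other fibroblast genes, 23 passed and 2 were higher and 1 lower (median -0.21): Fbln2 (fibulin, 1.33) and Loxl2 (a lysyl oxidase relative, 1.67, below the count for naming and named after its value was seen) were higher, and Twist2, a transcription factor, was lower (-1.10). Bgn, a proteoglycan related to Dcn, was higher (1.03, 0.84 to 1.29). Sertoli-cell markers summed to 46.6, 47.1 and 53.9 TPM over days 0, 4 and 9, and macrophage markers to 18.2, 22.1 and 23.1. Single genes of other cell types were called at day 9 against day 0: Star, the only Leydig gene that passed the filter, went from 7 to 63 counts (1.68) and Ptprc, a leukocyte surface gene of the macrophage list, from 0 to 18 (1.30). No Sertoli, endothelial, pericyte or germ-cell gene tested was called. The part of these genes in the marker ratios was not tested.

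Between the Matrigel densities nearly all markers differed. In the mesenchymal-like library 9 of 10 markers were higher than in the epithelial-like library and none lower, beside 12.5% of all genes called (10.7% higher and 1.78% lower). The median marker ratio was 4.98, and that of all genes was -0.06. Acta2 went from 9 to 781 counts (5.93, 5.55 to 7.61), Tnc from 13 to 1030 (5.95, 5.57 to 7.26), Tagln from 2 to 259 (5.43, 5.19 to 10.11) and Dcn from 4 to 265 (5.07, 4.72 to 7.98). Postn (5.14), Wisp1 (4.89), Pdgfrb (3.68) and Thy1 (2.96) were also higher. Lum was the weakest of the 9, from 1 to 8 counts (1.25, 0.14 to 8.51), and was not called with a pseudocount of 5 CPM (0.41). Pdgfra was not called, with 30.7 and 33.6 CPM (0.12, -0.23 to 0.48).

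The other fibroblast genes differed the same way between these libraries: 22 of 23 tested were higher and none lower, with a median of 4.45. Lox (lysyl oxidase, a collagen crosslinker) had a ratio of 5.99, Fbln2 5.68, Col1a2 5.60 and Col3a1 5.43. Among contractile genes 7 of 14 were higher, with Cald1 at 5.48, Tpm2 at 5.21 and Tpm1 at 2.31. Myl9 (2.20) was among those higher, while Mylk (-0.10) and Smtn (-0.18) were not called. The 18 genes of the list ranged from 0.110 TPM (Myh11) to 247 TPM (Tpm1) in the mesenchymal-like library. The CCN genes tested beside Wisp1 were higher in 3 of 3 cases: Cyr61 (5.51), Ctgf (5.39) and Wisp2 (3.55). Of the 3 receptor ligands tested, Pdgfc was higher (4 to 35 counts, 2.29), and Pdgfa and Pdgfb were not called (-0.09 and -0.41). Pdgfa was at 105 and 96.8 TPM in the 2 libraries.

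Markers of other cell types were mostly low beside the fibroblast genes. In the mesenchymal-like library the 10 Sertoli markers found summed to 22.1 TPM with 2 at 0, the 6 Leydig markers to 1.98 with 4 at 0, the 8 macrophage markers to 17.2 with 1 at 0, and the 7 endothelial markers to 5.05 with 2 at 0. The 7 pericyte or mural markers summed to 228 TPM, of which Mcam gave 218, and Rgs5, Kcnj8 and Abcc9 were at 1.44, 0 and 0.140. Of the 4 that passed the filter 3 were higher than in the epithelial-like library, with a median of 2.11: Cspg4 went from 2 to 37 counts (2.76), Notch3 from 5 to 51 (2.61) and Anpep from 10 to 38 (1.60). Of 6 Sertoli markers tested Sox9 was higher (20 to 94 counts, 2.06). The part of these markers in the ratios was not tested. Other fibroblast genes summed to 4570 TPM there and to 236 in the epithelial-like library. The 14 germ-cell markers found summed to 3680 TPM, the lowest of the 12 libraries, against 4530 in the epithelial-like library.

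**Figure D2:**
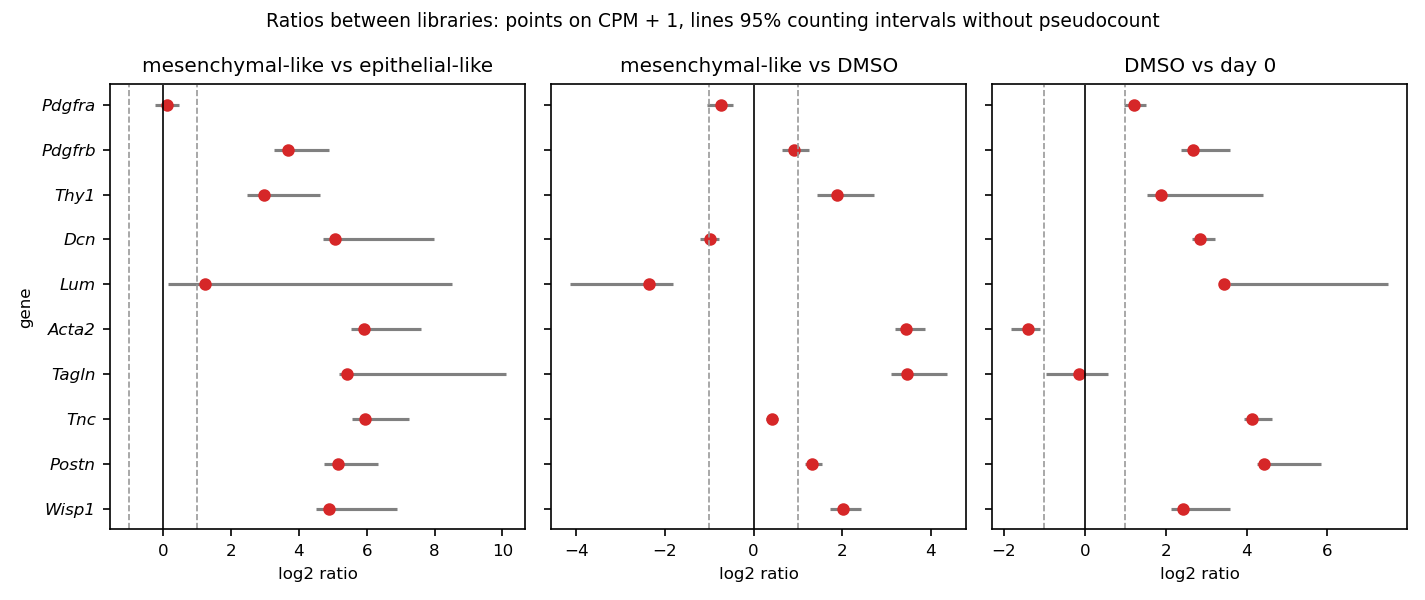
Log2 ratio of CPM + 1 for each marker gene (points) between the mesenchymal-like and epithelial-like, the mesenchymal-like and DMSO, and the DMSO and day 0 libraries; lines are 95% read-split intervals (Clopper-Pearson, no pseudocount), and dashed lines mark 2-fold. Points of 9 of the 10 genes lie beyond 2-fold in the left panel, while Acta2 lies far to the right in the middle panel and to the left of 0 in the right panel.

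The sorted fractions were grown at the same Matrigel density as the mesenchymal-like library and carried little marker RNA. GFP-mid had 1 marker lower than GFP-low and none higher, beside 4.07% of all genes called (3.38% higher and 0.685% lower): Acta2 went from 13 counts to 1 (-1.29, -9.77 to -1.63; -0.38 and no call with a pseudocount of 5 CPM). Of 23 other fibroblast genes 4 were higher in GFP-mid and none lower: Col3a1 (1 to 45 counts, 2.02), Col5a2 (7 to 50, 1.40), Col1a1 (177 to 643, 1.16) and Col1a2 (5 to 32, 1.12). Anpep of the pericyte list (1.5) and the proteoglycan gene Chad (1.08) were also higher, and Ctgf (-1.03) and the germ-cell gene Gfra1 (-1.13) were lower; their part was not tested. GFP-high had 3 markers higher than GFP-low and none lower, beside 9.54% of all genes called (6.94% higher and 2.59% lower). These were Pdgfrb (17 to 58 counts, 1.19, 0.73 to 2.40), Dcn (1 to 19 counts, 1.42, 1.35 to 9.38) and Tnc (0 to 23 counts, at least 6.49-fold higher against a floor of 3 counts, with a read-split interval from a log2 ratio of 2.28). The median marker ratio was 0.05, and that of all genes was -0.02. On the deposited TPM 1 of 10 was called: Dcn kept its call (1.52), and Pdgfrb (0.93) and Tnc (0.72) did not. With a pseudocount of 5 CPM none of the 3 was called (0.65, 0.45 and 0.57 for Pdgfrb, Dcn and Tnc).

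The other fibroblast genes were called higher in GFP-high for 9 of 23 and lower for none. Col3a1 had a ratio of 3.03, Col1a2 2.93, Fbln2 2.79 and Sparc 2.18. Macrophage markers differed the other way between the same libraries: 8 of 8 tested were lower in GFP-high, and their sum was 147 TPM in GFP-low, 155 in GFP-mid and 30.4 in GFP-high, against 13.6 to 23.1 in the other 9 libraries. Csf1r, the macrophage growth factor receptor, was at 22.7, 22.7 and 2.49 TPM in the 3 fractions and at 0 to 0.370 in the other 9. Pericyte or mural markers were higher in GFP-high in 3 of 4 tested (median 1.24): Anpep (15 to 99 counts, 2.00), Cspg4 (1 to 16, 1.26) and Notch3 (5 to 26, 1.21). Sox9 of the Sertoli list (1.06) and Tek of the endothelial list (1.42) were higher, and Kdr of the latter was lower (-1.62). Of 14 germ-cell genes Gfra1 (-1.57), Ret (-1.16), Etv5 (-1.46) and Nanos2 (-1.20) were lower. The part of these lists in the marker ratios was not tested.

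Against GFP-low, a comparison chosen after seeing the data and crossing experiments, the mesenchymal-like library had 9 of 10 markers higher, beside 18.0% of all genes called (12.4% higher and 5.59% lower). Acta2 went from 1.63 to 189 CPM (6.17, 6.07 to 7.77) and Postn from 1.13 to 158 CPM (6.22, 6.19 to 8.26). Tnc, with 0 counts in GFP-low, was at least 661-fold higher against a floor of 3 counts, with a read-split interval from a log2 ratio of 9.07. Pdgfra had 31.1 and 33.6 CPM (0.11, -0.20 to 0.42) and was not called. Lum was no longer called with a pseudocount of 5 CPM (0.40). Macrophage markers were lower in 8 of 8 tested (median -2.99). Of 4 pericyte or mural markers 3 were higher (median 2.43) and Mcam was lower (-1.22). Sox9 (3.76) and Clu (1.30) of the Sertoli list were higher, and Kdr of the endothelial list (-1.38) and Zbtb16 (-1.66), Tex101 (-1.01) and Dnd1 (-1.07) of the germ-cell list were lower. The part of these lists was not tested. Sorting and experiment cannot be told apart in this pair.

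Most markers were lower in the UNC0638 libraries than with DMSO. All 3 doses were compared with the same DMSO library, so the 3 sets of ratios are not independent. At 0.5 µM 6 of 10 markers were lower and none higher, beside 3.71% of all genes called (1.58% higher and 2.13% lower). At 1 µM 9 of 10 were lower, beside 6.71% of all genes called (2.59% higher and 4.12% lower). At 2 µM 8 of 10 were lower, beside 7.01% (3.42% higher and 3.59% lower). The median marker ratios were -1.28, -2.60 and -1.94, and those of all genes were -0.01, -0.00 and -0.02.

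The 5 proteoglycan and matricellular genes were lower at all 3 doses. Dcn was at 47.6%, 9.40% and 24.5% of its DMSO CPM at 0.5, 1 and 2 µM, from 642 counts with DMSO to 317, 69 and 137. Lum was at 25.8%, 3.69% and 9.70%, from 71 counts to 19, 3 and 6. Postn was at 34.4%, 8.15% and 6.64%, which made it the lowest at 2 µM among the 10 (log2 ratio -3.62, -4.69 to -3.23). Tnc was at 25.3%, 11.8% and 15.2%, and Wisp1 at 13.6%, 7.60% and 16.2%.

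The contractile and surface genes differed from each other. Acta2 was at 84.7%, 28.8% and 42.0% of DMSO and was called at 1 and 2 µM (-1.60 and -1.14); with a pseudocount of 5 CPM the call at 2 µM was lost (-0.85). Tagln was at 84.4%, 40.1% and 90.8% and was not called at any dose; its ratio at 1 µM was -0.99 (-2.5 to -0.23), and -1.06 and called on deposited TPM. Pdgfrb was at 23.5%, 19.5% and 24.8%, whereas Pdgfra was at 56.0%, 37.2% and 35.6%. Thy1 had 28, 16, 12 and 25 counts and was called at 1 µM only (-1.09, -2.53 to -0.39), a call lost with a pseudocount of 5 CPM (-0.58). At 2 µM its ratio was not called (0.03, -0.80 to 0.87).

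**Figure D3:**
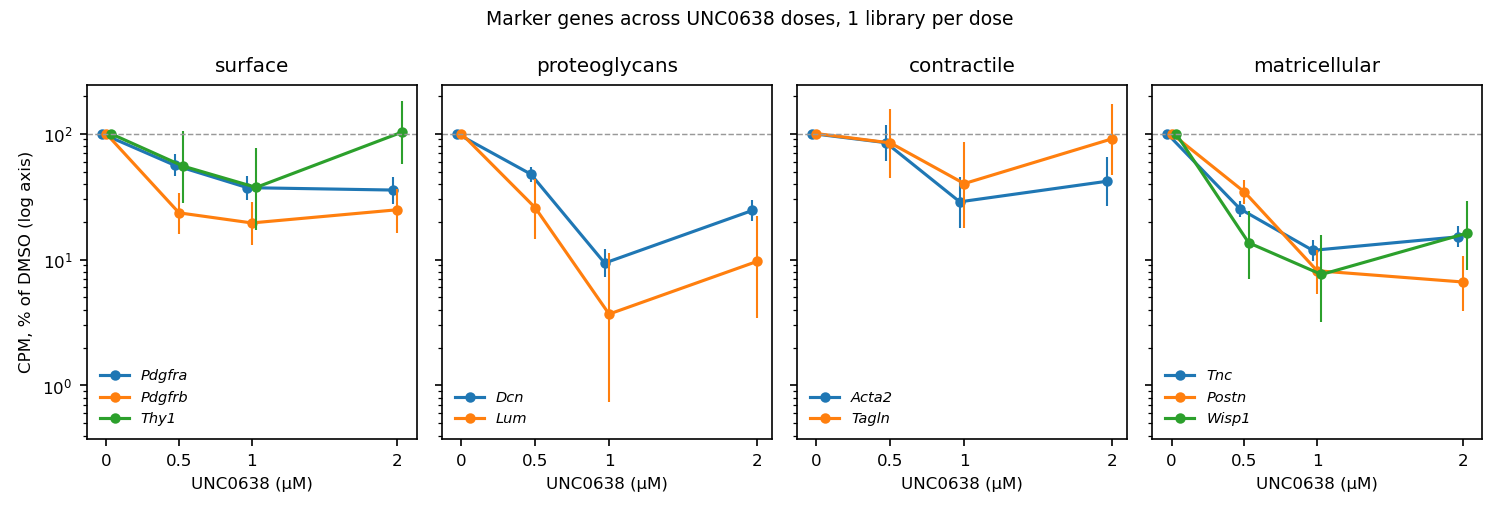
CPM of each marker gene as a percent of its DMSO level (log axis) against the UNC0638 dose in µM, grouped by role, with 1 library per dose; vertical lines are 95% intervals of the read split with DMSO. Of the 10 lines, 8 turn up between 1 and 2 µM, and Tagln and Thy1 end at 90.8% and 102%. Only for Dcn, Thy1 and Tagln does that step exceed counting error.

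The marker genes did not fall in step with the dose. For 8 of the 10 the 1 µM library was the lowest of the 4, and only Pdgfra and Postn fell at every step. From 1 to 2 µM the read-split interval excluded 0 only for Dcn, Thy1 and Tagln (0.04 to 2.40). The steps of the other markers lay within counting error, the falls of Pdgfra (-0.48 to 0.34) and Postn (-1.23 to 0.60) among them. Thy1, at 102% with 2 µM, was not below DMSO at every dose; of the 9 markers that were, 7 were lowest at 1 µM and 2 at 2 µM. Among the 4074 genes of all that lay below DMSO at every dose, 1336 were lowest at 1 µM and 1842 at 2 µM. Among the 20 such genes of the other fibroblast list, 19 were lowest at 1 µM. In the direct comparison of 2 with 1 µM, chosen after seeing the data, 2 markers were higher and none lower, beside 3.71% of all genes called (2.46% higher and 1.24% lower): Dcn (1.31, 0.95 to 1.82) and Thy1 (1.12, 0.40 to 2.58; 0.60 and no call with a pseudocount of 5 CPM). Of the listed genes Pdpn (1.08), Twist2 (1.49), Dpt (1.03), Prelp (1.07), Omd (1.10), Ctgf (1.02), Thbs2 (1.31), Star of the Leydig list (1.25) and Cd14 of the macrophage list (1.04) were also higher and none was called lower; their part was not tested. The 2 µM library was also the shallowest of the 12 (4335185 counts), and the part of depth in this order was not tested.

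Of the other fibroblast genes 10, 20 and 16 of 23 were lower at 0.5, 1 and 2 µM and none was higher. Col3a1, which encodes the collagen of reticular fibres, had the lowest ratio at each dose (-1.94, -4.78 and -4.31). The CCN genes tested beside Wisp1 were lower in 2, 3 and 3 of 3 cases, with Ctgf at -1.80, -3.14 and -2.12. The contractile list had 0, 1 and 0 of 14 genes lower and 0, 0 and 1 higher. These were Myl9 (-1.22) and Myh11 (1.09), both below the count for naming and named after their values were seen. Cald1 had ratios of -0.49, -0.92 and -0.31 at the 3 doses, none called. Of 4 pericyte or mural markers 0, 1 and 0 were called lower (medians -0.24, -0.56 and -0.46), the 1 being Cspg4 (14 to 5 counts, -1.02). None of the 14 germ-cell genes was called at any dose. Of the ligands, Pdgfa had ratios of 0.04, 0.25 and 0.45, and Pdgfc was lower at 1 µM (22 to 1 counts, -2.20) and 2 µM (22 to 4, -1.49). Of the Sertoli list Dhh was lower (8 to 1 counts, -1.08) and of the macrophage list Ptprc was higher (3 to 13, 1.32), both at 2 µM. The part of these genes and of the pericyte or mural markers was not tested.

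The 2 feeder cultures without inhibitor, DMSO and day 0, differed widely in these genes although both are labelled as grown on MEF. With DMSO 8 of 10 markers were higher and 1 lower, beside 19.4% of all genes called (12.2% higher and 7.22% lower). Postn went from 15 to 311 counts (4.42, 4.25 to 5.85), Tnc from 74 to 931 (4.14, 3.93 to 4.64), Lum from 3 to 71 (3.45, 3.58 to 7.5) and Dcn from 130 to 642 (2.85, 2.65 to 3.21). Acta2 went the other way, from 45.0 to 16.4 CPM (-1.40, -1.82 to -1.11). Tagln was not called (-0.15, -0.97 to 0.57). Thy1 was called (1.89) but not with a pseudocount of 5 CPM (0.87). Of the other fibroblast genes 18 of 23 were higher with DMSO, with Mgp (matrix Gla protein) at 4.77 and Col1a2 at 4.58. Of the 14 contractile genes that passed the filter 7 were higher and none was called lower, among them Cald1 (1.32) and Cnn2 (1.25). Cnn1, which did not pass it, went the way of Acta2, from 21 counts at day 0 to 0 with DMSO, and Myl9 had a ratio of -0.56; both are named after their values were seen. Pericyte or mural markers were higher with DMSO in 4 of 4 tested, with a median of 1.13: Cspg4 (6 to 14 counts, 1.09), Notch3 (6 to 15, 1.17), Mcam (1543 to 2528, 1.33) and Anpep (9 to 18, 1.08). Of 6 Sertoli markers tested none was called (median -0.31). Star (1.55), the germ-cell genes Gfra1 (1.87) and Ret (1.09) and the ligand Pdgfc (1.08) were higher, and Itgam (-1.03) of the macrophage list and Tek (-1.54) were lower. The part of these markers in the ratios was not tested.

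The mesenchymal-like library exceeded day 0 in 9 of 10 markers, beside 27.2% of all genes called (17.8% higher and 9.39% lower). Pdgfra was the exception (0.48, 0.16 to 0.82). The smallest called differences were in Lum (1.08), Dcn (1.86) and Acta2 (2.04), and the largest in Postn (5.75, 5.61 to 7.19). The call of Lum was lost when scaled by total counts alone (0.99), on deposited TPM (0.96) and with a pseudocount of 5 CPM (0.36), each of which left 8 markers higher. Against DMSO the same library had 5 markers higher and 1 lower, beside 10.2% of all genes called (7.78% higher and 2.47% lower). Tagln (3.46, 3.10 to 4.37) and Acta2 (3.45, 3.20 to 3.87) led, followed by Wisp1 (2.01), Thy1 (1.88) and Postn (1.33), and Lum was lower (-2.37, -4.14 to -1.82). Dcn lay just short of a call on the lower side (-0.99, -1.21 to -0.79; called at -1.11 by total counts and -1.18 by deposited TPM) and Pdgfrb on the higher side (0.92, 0.65 to 1.25). Markers of other cell types moved in the same pairs. Against day 0, 5 of 6 Sertoli markers tested were lower, among them Wt1 (63 to 4 counts, -2.22) and Cldn11 (46 to 2, -2.23), and Sox9 was higher (1.33), with a median of -1.29. Pericyte or mural markers were higher than at day 0 in 4 of 4 tested (median 2.36), led by Notch3 (2.90). Star (1.61), the ligands Pdgfa (1.17) and Pdgfc (1.89) and the germ-cell gene Gfra1 (1.72) were higher than at day 0, and Itgam (-1.03) and the germ-cell genes Ddx4 (-1.05), Tex101 (-1.57) and Nanos3 (-1.58) were lower. Against DMSO 3 of 6 Sertoli markers were lower (median -0.98) and 3 of 4 pericyte or mural markers higher (median 1.27). Their part in the marker ratios was not tested. Of 14 other contractile genes 5 were higher than with DMSO and none was called lower (median 0.51): Tpm2 (2.88), Cald1 (2.5), Tpm1 (1.83), Cnn2 (1.68) and Myl9 (1.35). The lowest ratios of the list were those of Srf (-0.68), Myh11 (-0.57) and Smtn (-0.54).

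The make-up of the marker RNA was then compared, as each gene's share of the summed TPM of the 10. These shares do not depend on how libraries are scaled to each other. In the mesenchymal-like library the contractile genes held 48.2%, the matricellular genes 30.7%, the proteoglycans 11.9% and the surface genes 9.17%. With DMSO the proteoglycans held 51.2%, the matricellular genes 30.2%, the surface genes 10.6% and the contractile genes 8.01%. At day 0 the contractile genes held 63.6% and the matricellular genes 5.21%. The matricellular share was thus alike in the mesenchymal-like and DMSO libraries, while the contractile and proteoglycan shares were exchanged.

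**Figure D4:**
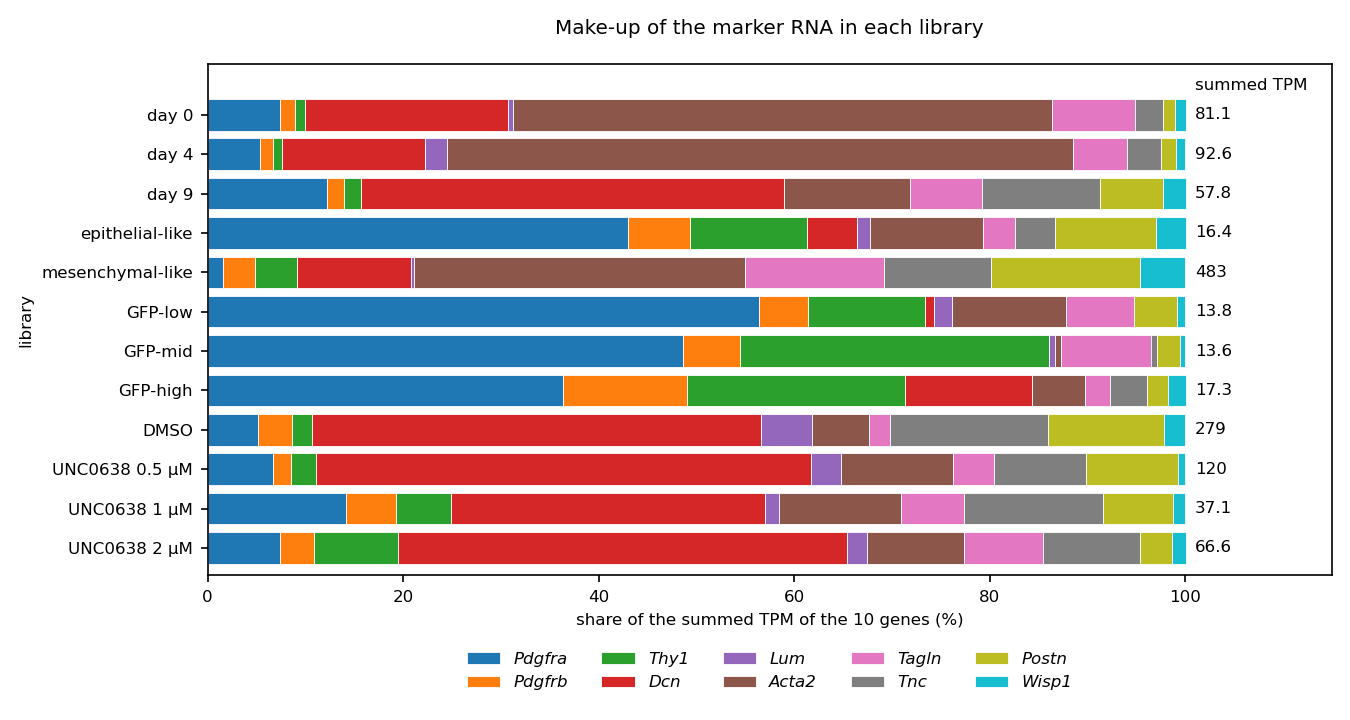
Share of each marker gene in the summed deposited TPM of the 10 genes (horizontal axis, %) in each of the 12 libraries, with the summed TPM at the right. Acta2 takes 55.1% at day 0 and 33.8% in the mesenchymal-like library, Dcn takes 46.0% with DMSO, and Pdgfra takes 36.3% to 56.4% in the sorted fractions.

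A make-up distance, the sum of the absolute differences between shares divided by 2, gives 0% for identical and 100% for disjoint make-ups. The mesenchymal-like library was 36.5% from day 0 (33.3 to 39.8, a Wilson interval on the smaller marker count), 48.2% from DMSO (46.3 to 50.1) and 46.9% (43.8 to 50), 40.7% (36.2 to 45.3) and 46.3% (41.9 to 50.7) from 0.5, 1 and 2 µM UNC0638. It was 65.7% (60.2 to 70.7) from GFP-low. The 2 feeder libraries, day 0 and DMSO, were 57.9% apart (54.5 to 61.1), further than the mesenchymal-like library was from either. These intervals treat a distance as a proportion of the marker reads, which it is not. They are rough, and their overlap does not rank the distances. By TPM the mesenchymal-like library was nearer to day 0 than to DMSO. This order turned with the unit: in shares of expected counts, not divided by gene length, the distance was 46.6% to day 0 and 35.7% to DMSO. Without Acta2 the day 0 library was 27.8% from DMSO and 43.6% from the mesenchymal-like library. That day 0 was further from DMSO than from the mesenchymal-like library therefore rested on Acta2.

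Within the inhibitor experiment the make-up also differed between libraries. The 0.5, 1 and 2 µM libraries were 14.3% (12.3 to 16.6), 25.2% (21.4 to 29.5) and 18.8% (15.6 to 22.5) from DMSO. These distances depended on Dcn: without it they were 22.3%, 30.1% and 34.7%, with 2 µM in place of 1 µM the furthest from DMSO. Dcn held 46.0% of the marker TPM with DMSO and 50.6%, 32.1% and 45.9% at the 3 doses. The share of the contractile genes was 15.7%, 18.9% and 18.0%, against 8.01% with DMSO. The share of Postn was 11.9% with DMSO and 9.43%, 7.18% and 3.21% at the 3 doses.

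With Acta2 included, the make-up of day 9 lay nearer to the libraries of the inhibitor experiment than to its own day 0. This comparison crosses experiments. Its distance from day 0 was 43.7% (40.4 to 47.1) and from day 4 53.3% (50.5 to 56.1). From DMSO it was 19.4% (17.3 to 21.7) and from 1 µM UNC0638 13.5% (10.7 to 17.1). Acta2 was the largest single part of the distances to days 0 and 4, followed by Dcn. Acta2 held 55.1% and 64.0% at days 0 and 4, 12.9% at day 9, 5.83% with DMSO and 12.5% at 1 µM. Dcn held 20.8%, 14.7% and 43.2% at days 0, 4 and 9. The distances of day 9 were not recomputed without Acta2, so whether it stays nearer to the inhibitor experiment without this gene was not tested. Days 0 and 4 were 11.5% apart (9.56 to 13.9).

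In the epithelial-like and sorted libraries Pdgfra was the largest part of what little marker RNA there was. It held 43.0% in the epithelial-like library and 56.4%, 48.6% and 36.3% in GFP-low, GFP-mid and GFP-high, against 1.53% in the mesenchymal-like library. The surface genes together held 61.3% to 86.1% in these 4 libraries. The summed TPM of the surface genes in them, 10.1 to 12.4, lay beside 8.05 at day 0 and 44.3 in the mesenchymal-like library, so the high share went with low levels of the other genes.

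Each marker was also divided by Col1a1, which encodes a main fibrillar collagen chain, within each library. Acta2 per Col1a1 in TPM was 1.78 (1.55 to 2.04) at day 0, 2.82 (2.54 to 3.14) at day 4 and 0.258 (0.204 to 0.323) at day 9. It was 0.222 (0.206 to 0.239) in the mesenchymal-like library and 0.0421 (0.0334 to 0.0523) with DMSO. The UNC0638 libraries, at 0.128, 0.0961 and 0.129, lay above DMSO, with intervals that did not overlap that of DMSO. Tagln per Col1a1 was 0.0157 with DMSO and 0.0479, 0.0500 and 0.104 at the 3 doses. The denominator itself was lower there: Col1a1 was at 27.8%, 12.6% and 13.7% of its DMSO CPM. Acta2 (84.7%, 28.8% and 42.0%) and Tagln (84.4%, 40.1% and 90.8%) did not exceed DMSO at any dose. Col1a1 was at 25.0 TPM at day 0, 387 with DMSO and 736 in the mesenchymal-like library.

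Tnc per Col1a1 did not differ beyond counting error between DMSO and the inhibitor libraries. It was 0.117 (0.109 to 0.125) with DMSO and 0.106 (0.0923 to 0.121), 0.110 (0.0900 to 0.132) and 0.129 (0.105 to 0.157) at 0.5, 1 and 2 µM, with overlapping intervals. Postn per Col1a1 was 0.0857 (0.0762 to 0.0961) with DMSO and 0.106 (0.0868 to 0.129), 0.0554 (0.0369 to 0.0803) and 0.0415 (0.0244 to 0.0661) at the 3 doses, of which the interval at 2 µM alone did not overlap that of DMSO. Dcn per Col1a1 was 0.332, 0.570, 0.248 and 0.593 over the same 4 libraries, and 0.0760 (0.0670 to 0.0859) in the mesenchymal-like library. During feeder removal Tnc per Col1a1 was 0.0928, 0.153 and 0.241 at days 0, 4 and 9.

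**Figure D5:**
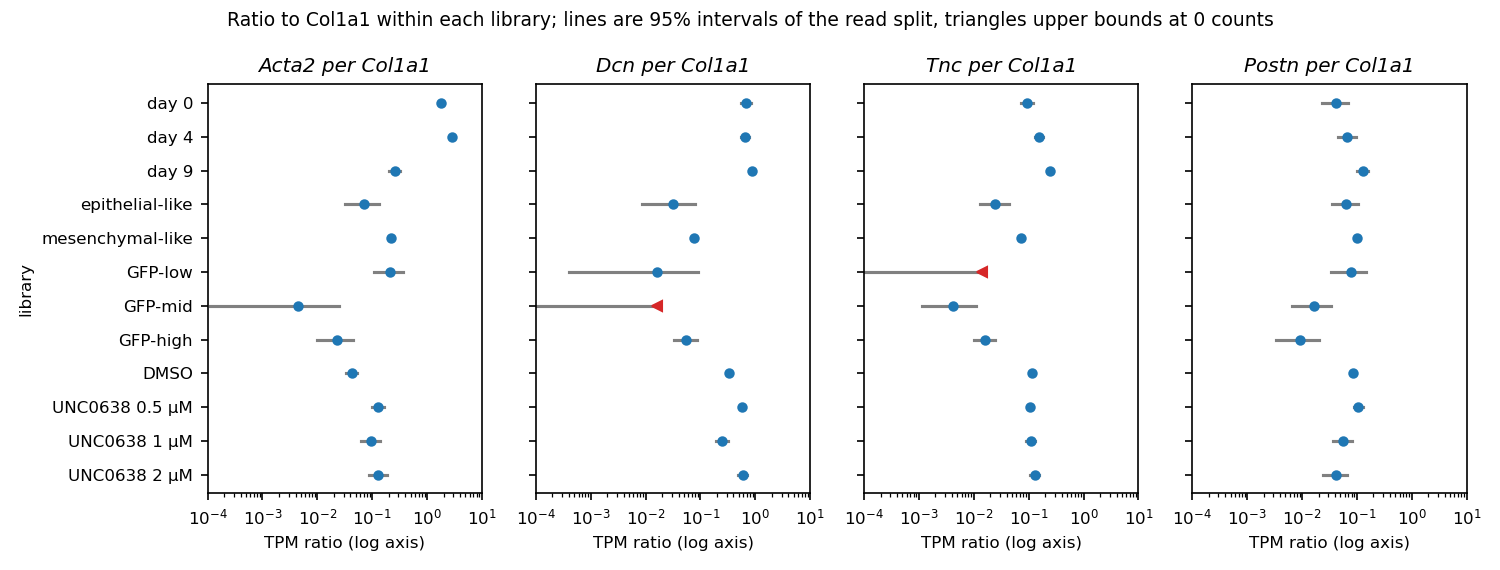
TPM of Acta2, Dcn, Tnc and Postn divided by that of Col1a1 within each of the 12 libraries (log axis); lines are 95% read-split intervals and red triangles are upper bounds where the marker had 0 counts. Acta2 per Col1a1 spans 0.00438 in GFP-mid to 2.82 at day 4, and Tnc per Col1a1 stays between 0.106 and 0.129 over the DMSO and UNC0638 libraries.

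The genes outside the 10 whose log2(CPM + 1) across libraries was most like the mean of the markers were Fstl1 (Pearson r = 0.990 over 12 libraries), Pgcp (0.985), Nnmt (0.984), Phldb2 (0.982), Grb10 (0.982), Thbs1 (0.981), Arsb (0.981), Lox (0.981), Prrx1 (0.978) and Ak1 (0.975), chosen from 12440 candidates. Without the mesenchymal-like library their r was 0.956 to 0.984 over 11. Fstl1, Lox and Prrx1 were also in the list of other fibroblast genes. These values describe the 12 libraries, which differ in depth and share experiments, and carry no test. Single markers had other nearest genes: Mmp3 for Dcn (0.987), Bgn for Tnc (0.985), Col6a3 for Postn (0.975), Thsd7a for Pdgfrb (0.977), Anxa2 for Tagln (0.980, second to 0610031J06Rik) and Gorasp2 for Acta2 (0.966). The nearest to Pdgfra was Fvt1, at 0.847.

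Among the markers themselves the closest pair was Dcn and Tnc (r = 0.96 over 12 libraries and 0.97 without the mesenchymal-like one). Acta2 and Tagln had 0.88 and 0.86. Some pairs with Thy1 rested on the mesenchymal-like library: Thy1 and Tagln had 0.62 with it and -0.08 without it, and Thy1 and Wisp1 had 0.69 and 0.20. Pdgfra and Acta2 had 0.13 and -0.00. Pdgfra and Postn had 0.65 and 0.70.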

How the data were processed

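RNA was extracted with a Qiagen RNeasy Micro Kit and turned into libraries with modified Smart-seq2, per the labels' protocols. The submitters' processing notes name Trim Galore, RSEM and the build mm10; versions, aligner and annotation release are not given in the sources used here. The authors deposited 1 table per library with an expected count (an estimated count that shares ambiguous reads) and a TPM for each gene, per the file headers. The deposited TPM corrects counts for gene length and depth. The deposited FPKM column was not used.

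Expected counts were rounded and scaled to CPM with TMM factors (0.912 to 1.07) of edgeR 4.0.16 in R 4.3.3. The filter kept genes whose mean was 1 CPM or more. A log2 ratio used a pseudocount of 1 CPM, which understates the change of low genes, and a call needed 2-fold. Intervals of ratios are 95% Clopper-Pearson intervals of a read split without pseudocount. Those of a CPM are Poisson intervals, and those of the share of all counts and of make-up distances are Wilson intervals. For make-up distances they are rough. Since reads were amplified, all of these and the floor of 3 counts cover counting error only. Make-up shares used the deposited TPM. Ratios within a library, given as TPM ratios, were ratios of rounded counts, each divided by the deposited effective length of its gene. With 1 library per group nothing was tested. The steps were tested on simulated data.

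The markers, lists and comparisons were chosen with earlier results of these data known. Listed genes were named when among the 4 largest changes with at least 50 counts in the higher library, or as markers defining a cell type. In lists with few calls in a direction, called genes were also named whatever their count. That rule was added after the values were seen, and it covers genes not marked so in the text. Genes most like the markers were those with the highest Pearson r of log2(CPM + 1). All 10 markers were matched by transcript to RefSeq (GRCm38.p6), the source of positions and promoter windows. Alternatives were size factors from DESeq2 1.42.0, scaling by library total, deposited TPM in place of CPM, a pseudocount of 0.1 or 5, the filter removed or raised to 10 CPM, shares from counts, and shares without Thy1 or the largest member. Other steps ran in Python 3.11.15 (scipy 1.17.1, pandas 2.3.3, numpy 2.4.6; plots in matplotlib 3.10.9).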

Additional observations from a re-analysis of the deposited data

How the results depend on the processing

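Of the recounts of called markers, 83 stayed within 1.5 times the value given and 15 did not. With a pseudocount of 5 CPM, 0 markers were called at day 4 against day 0, 1 at day 9 against day 4, 0 in GFP-mid and 0 in GFP-high against GFP-low, and 1 at 2 against 1 µM. With 0.1 CPM the counts were 4 in GFP-mid, 6 in GFP-high and 5 at 2 against 1 µM. On the deposited TPM GFP-high had 1. The filter at 10 CPM left 6 markers and called 0 at day 4, 5 in the mesenchymal-like library against the epithelial-like, GFP-low and day 0 libraries, 2 against DMSO, and 1 at 2 against 1 µM. Of 140 marker ratios, 137 kept their sign over 6 settings; Wisp1 at day 4 (0.01), Pdgfra in mesenchymal-like against GFP-low (0.11) and Thy1 at 2 µM (0.03) did not.

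Make-up distances depended on the unit and on the largest marker. From expected counts, not divided by length, they were 46.6% for mesenchymal-like and day 0, 35.7% for mesenchymal-like and DMSO, 39.0% for mesenchymal-like and 2 µM, 77.9% for mesenchymal-like and GFP-low, 52.5% for DMSO and day 0, and 17.7% for 0.5 µM and DMSO. By counts the mesenchymal-like library was therefore nearer to DMSO than to day 0, the reverse of the order by TPM. Without the marker with the largest share the same pairs gave 43.6% and 27.8% (without Acta2, mesenchymal-like or DMSO and day 0), 41.9% and 35.0% (without Dcn, mesenchymal-like and DMSO or 2 µM), 36.4% (without Pdgfra, mesenchymal-like and GFP-low), and 22.3%, 30.1% and 34.7% for 0.5, 1 and 2 µM and DMSO without Dcn. The cause was not tested. No paired analysis was possible because each RNA group had 1 library, and the replicate numbers in the labels belong to ATAC libraries not analysed here.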
